A study of Homo sapiens with 20 samples.

Results

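The genes on which knockdown of SP6 and knockdown of FOXO4 acted differently were sought at day 7 of surface epithelium (SE) differentiation in the human embryonic stem cell line H1, which is established and widely used. For each gene the effect of the hairpin against SP6 (shSP6 minus its scramble) was set against the effect of the hairpin against FOXO4 (shFOXO4 minus its scramble), on log2(normalized count + 1). The comparison used 8 of the 20 libraries of the series: 2 of shSP6 cells, 2 of the scramble cells that belong to them, 2 of shFOXO4 cells and 2 of their own scramble cells. All 8 carried a short hairpin RNA (shRNA), since scramble cells hold a control hairpin, and all had been taken through differentiation to the maturation stage. Genes had to average 10 or more in each of the day 7 tables, a limit that 16043 of the 26104 genes listed in both tables met. The lowest mean inside this limit was 10.01 and the highest outside it 9.997. The question behind the comparison is whether loss of either factor leaves the cells in the same state.

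FOXO4 is a forkhead transcription factor that growth factor signalling through AKT keeps out of the nucleus, and SP6, also called epiprofin, is a zinc finger factor of the SP and KLF family that binds GC-rich promoters and is needed in mice for teeth, skin and hair follicles. Surface epithelium arises from ectoderm under BMP signals. It switches off pluripotency factors such as NANOG and SOX2, switches on TFAP2 and GATA factors with the simple-epithelium keratins KRT7, KRT8 and KRT18, and only later, under TP63, makes the basal keratins KRT5 and KRT14.

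Between 14937104 and 30328846 reads were recovered for 7 of the 8 libraries, and the other, scramble replicate 2 of the shFOXO4 table, had a normalized total of 18887684. The SD of log2 values between the replicates of a group was 0.196 in shSP6 cells, 0.249 in their scramble cells, 0.239 in shFOXO4 cells and 0.296 in their scramble cells. Separate cultures are not stated in the labels for the 2 libraries of any group. The p-values therefore reflect just the variation between those libraries, and it may be technical variation. The 2 tables were scaled separately, and each hairpin was measured in 1 table only. A level set across tables therefore stands without a test, and there the hairpin and the table cannot be told apart. The summed level of 6 pluripotency markers was 110448 to 111773 in shSP6 cells, 72148 to 85787 in their scramble cells, 110215 to 120313 in shFOXO4 cells and 33291 to 39117 in their scramble cells. The summed level of 11 surface epithelium markers was 40211 to 41230 in shSP6 cells and 187356 to 214759 in their scramble cells, and 55425 to 56458 in shFOXO4 cells and 188047 to 191818 in their scramble cells. The scramble cells of both tables thus held the markers of the labelled fate together with pluripotency RNA. The keratins KRT5 and KRT14 were not listed in the shSP6 table. In bulk RNA, fewer cells of a type and less RNA per cell cannot be told apart.

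Both hairpins lowered both targeted RNAs, and each lowered its own the more. FOXO4 (ENSG00000184481) measured 253 and 225 in shSP6 cells against 1513 and 1204 in their scramble cells, and 35.5 and 35.5 in shFOXO4 cells against 1206 and 1009 in theirs. The difference between the 2 effects was 2.43 ± 0.19 (SE, adjusted p = 1.88e-06; limma across all tested genes, Benjamini-Hochberg). SP6 (ENSG00000189120) measured 85.7 and 93.1 in shSP6 cells against 4077 and 3040.1 in scramble cells, and 520.2 and 457 in shFOXO4 cells against 5230.1 and 4867 in scramble cells. Its difference was -1.92 ± 0.17 (adjusted p = 4.49e-06). No library overlapped with one of its opposite arm for either gene.

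Of the 16043 genes tested, 7868 (49%) differed between the 2 effects. The shSP6 effect was the higher one for 3193 genes (19.9%) and the lower one for 4675 (29.1%), and the difference reached at least 1 on the log2 scale for 991 and 2475 of them. The median difference over all tested genes was -0.11, and quantile normalization moved it to 0.04, so differences near these values follow the scaling. Since 1 is added before the logarithm, changes of low genes come out too small. Taken alone, the shSP6 effect was called higher for 28.8% and lower for 32.1% of the tested genes, and the shFOXO4 effect higher for 38.1% and lower for 35.8%. The effects were wider in shFOXO4 cells, with an SD across genes of 1.21 for the shSP6 effect and 1.66 for the shFOXO4 effect. Across genes, which are not independent replicates, the 2 effects had a Pearson correlation of 0.74 and a Spearman correlation of 0.70.

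The called differences fell into several classes. Both effects were called in the same direction, with a difference in size, for 3250 genes, and without a called difference for a further 3843. The rise was larger in shSP6 cells for 209 of the 3250 genes and larger in shFOXO4 cells for 1513, while the fall was larger in shSP6 cells for 518 and larger in shFOXO4 cells for 1010. Only the shSP6 effect was called for 1032 genes with a called difference, only the shFOXO4 effect for 2544, and neither for 101. In 941 genes the 2 effects were called in opposite directions: 411 rose in shSP6 cells and fell in shFOXO4 cells (2.56%), and 530 fell in shSP6 cells and rose in shFOXO4 cells (3.3%).

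**Figure D1:**
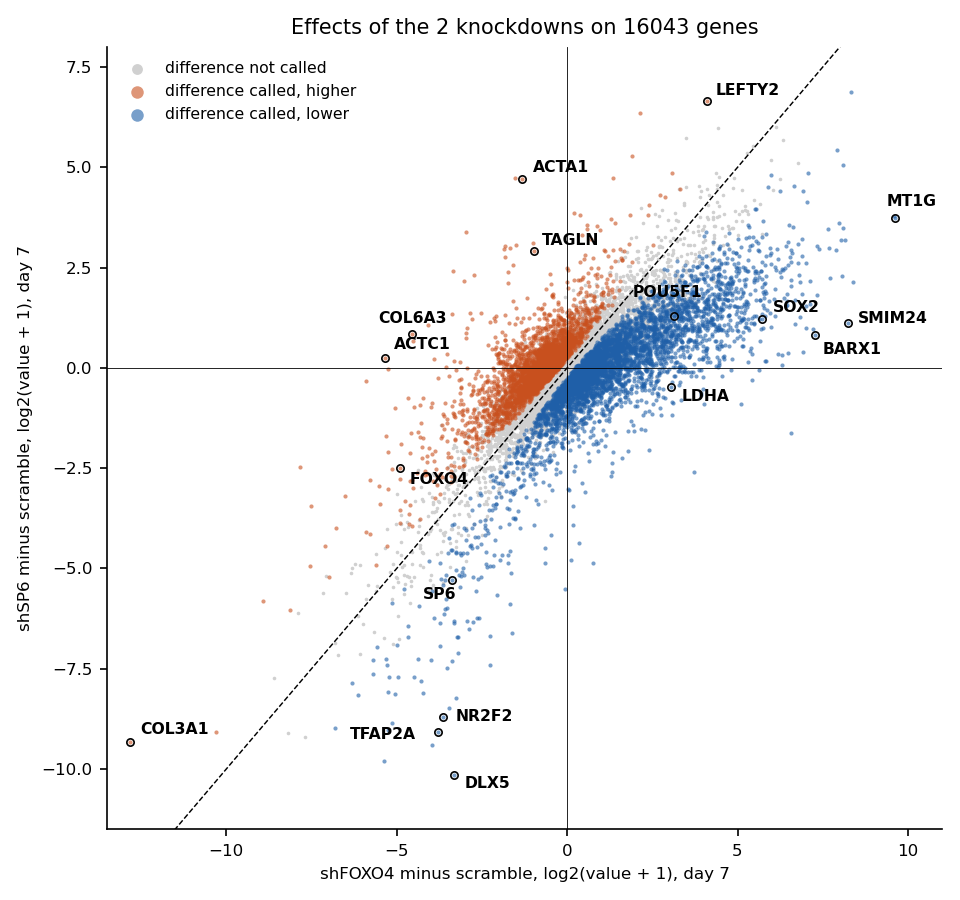
Effect of each hairpin on 16043 genes at day 7, as log2(value + 1) of the knockdown minus its scramble: shSP6 on the vertical axis, shFOXO4 on the horizontal axis. Orange points have a called difference above the dashed line of equal effects (3193 genes), blue points one below it (4675 genes), and ACTA1, in the upper left, rose by 4.72 with shSP6 and fell by 1.31 with shFOXO4.

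Genes of the contractile apparatus stood highest in the difference. Of 22 tested contractile and cardiac muscle genes, 15 were higher in the difference and 4 lower, against 19.9% and 29.1% of all tested genes, and the median difference was 1.09. Quantile normalization and edgeR left 2 lower, and a limit of 50 on the mean left 9 higher and 2 lower. The median shSP6 effect was 0.71 and the median shFOXO4 effect -0.57. ACTA1 (ENSG00000143632), the skeletal muscle actin, measured 9873 and 9560.4 in shSP6 cells against 359.7 and 377 in scramble cells, and 476 and 516 in shFOXO4 cells against 1037 and 1459 in scramble cells. It rose in shSP6 cells and fell in shFOXO4 cells, with no overlap of arms in either table, and its difference of 6.03 ± 0.18 (adjusted p = 1.52e-09) was the largest among called genes that averaged 100 or more in each table.

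ACTC1, the cardiac actin, came next among them with a difference of 5.59 ± 0.22 (adjusted p = 1.92e-08). Its levels were 1107 and 994 in shSP6 cells and 1064 and 724 in their scramble cells, which overlapped (adjusted p = 0.167), but 77.5 and 89.9 in shFOXO4 cells against 3157 and 3678 in theirs. For ACTC1 the fall in shFOXO4 cells made the difference, whereas for ACTA1 the rise in shSP6 cells was the larger of the 2 effects. TAGLN, which encodes the actin-binding protein transgelin of smooth muscle and was counted in the matrix list below, followed the pattern of ACTA1, with 4394 and 4339 in shSP6 cells against 557 and 603 in scramble cells, and 349 and 421 in shFOXO4 cells against 568 and 1011 in scramble cells. NPPB, the gene of the natriuretic peptide BNP, measured 739 and 524 in shSP6 cells against 64.9 and 85.2 in scramble cells, and 22.3 and 39.7 in shFOXO4 cells against 83.1 and 143 in scramble cells (difference 4.88 ± 0.43, adjusted p = 3.84e-06). TPM1, a tropomyosin that lies along actin filaments, fell in both, by less in shSP6 cells (-1.36 ± 0.09) than in shFOXO4 cells (-3.52 ± 0.09). The actin genes share long identical stretches, and how the authors' counting divided reads between them was not tested. The 4 cardiac muscle markers TNNT2, MYL7, MYH6 and NKX2-5 stayed low, with a summed level of 135 to 143 in shSP6 cells, 147 to 151 in their scramble cells, 40.7 to 64.8 in shFOXO4 cells and 224 to 239 in theirs.

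The promoters of both actin genes carry a CArG box, the site bound by serum response factor in muscle genes, and are printed because these genes lead the difference. Each line gives 250 bases before the start of the gene from RefSeq (GRCh38.p14), read 5′ to 3′ on the gene's strand, with the CArG box in capitals. Each holds 1 match, 97 bases (ACTA1) and 109 bases (ACTC1) from the start, and 1.16% of 35116 promoter windows of this length hold one.
ACTA1 (chr1:229434095-229434344, minus strand): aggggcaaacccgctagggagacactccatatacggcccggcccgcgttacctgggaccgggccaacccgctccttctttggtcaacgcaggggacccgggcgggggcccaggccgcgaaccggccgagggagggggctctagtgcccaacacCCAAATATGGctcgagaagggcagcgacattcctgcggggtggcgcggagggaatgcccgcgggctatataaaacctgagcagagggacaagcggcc
ACTC1 (chr15:34795550-34795799, minus strand): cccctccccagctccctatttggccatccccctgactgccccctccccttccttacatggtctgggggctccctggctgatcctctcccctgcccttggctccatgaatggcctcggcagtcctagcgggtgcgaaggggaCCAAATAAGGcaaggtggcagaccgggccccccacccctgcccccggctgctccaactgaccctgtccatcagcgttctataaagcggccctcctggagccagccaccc
A match describes these letters and is no measured binding site.

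Matrix genes followed in part, where 19.9% of all tested genes were higher in the difference and 29.1% lower. Of 33 tested mesenchymal matrix genes, 17 were higher in the difference and 7 lower (4 in edgeR; median 0.53), with a median shSP6 effect of 0.74 and a median shFOXO4 effect of -0.41. COL6A3, a chain of microfibrillar collagen VI, measured 329 and 301 in shSP6 cells and 318 and 95.2 in their scramble cells, an overlap, against 59.1 and 50.2 in shFOXO4 cells and 1419.5 and 1192 in theirs. Its difference of 5.40 ± 0.53 (adjusted p = 8.18e-06) came with a fall in shFOXO4 cells and no called change in shSP6 cells. COL12A1, a collagen that sits on fibril surfaces, rose to 239.6 and 235 in shSP6 cells against 132 and 65.3 in scramble cells, and fell to 31.5 and 44.9 in shFOXO4 cells against 314 and 503 in scramble cells. The matrix glycoprotein tenascin C (TNC) likewise reached 4958 and 4987 in shSP6 cells against 2963 and 2119 in scramble cells, and 636 and 775 in shFOXO4 cells against 4904 and 6012 in scramble cells (difference 3.94 ± 0.20, adjusted p = 1.30e-07). These 3 genes were all lower in shFOXO4 cells without overlap, and COL12A1 and TNC also higher in shSP6 cells.

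Other matrix genes shared this direction only in part. COL5A2, a regulator of collagen fibril width, rose in shSP6 cells (1.76 ± 0.10) and fell in shFOXO4 cells (-0.41 ± 0.10), whereas PDGFRA, a receptor of mesenchymal cells, fell in shSP6 cells (-1.59 ± 0.22) and rose in shFOXO4 cells (1.39 ± 0.22). PDGFRA was chosen after its values were seen. MFAP5, a microfibril protein, measured 189 and 197 in shSP6 cells against 22.8 and 13.3 in scramble cells, and 2.63 and 3.14 in shFOXO4 cells against 27.7 and 30.99 in scramble cells (difference 6.37 ± 0.48). COL3A1, the fibrillar collagen III, all but vanished in both knockdowns. It held 3.78 and 6.12 in shSP6 cells against 6013 and 2382 in scramble cells, and 1.31 and 2.09 in shFOXO4 cells, 3 reads in all, against 18595 and 20714 in scramble cells. Its fold in shFOXO4 cells was 11242 lower, with an exact 95% counting interval of 3846 to 54515, and its difference of 3.501 ± 0.47 (adjusted p = 8.16e-05) lost its call in edgeR on recovered reads (adjusted p = 0.210). LUM, which encodes the matrix proteoglycan lumican and was named after its values were seen, was at 0 in all libraries of both knockdowns. ANXA1, a calcium-dependent membrane-binding protein, moved in opposite directions, with 3259 and 3270.1 in shSP6 cells against 499 and 619 in scramble cells, and 162 and 242 in shFOXO4 cells against 501 and 712 in scramble cells. Its difference was 4.14 ± 0.26 (adjusted p = 4.19e-07).

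At the low end of the difference, metallothionein RNAs rose in both knockdowns and far more in shFOXO4 cells. Metallothioneins are small cysteine-rich proteins that bind zinc and copper, and the factor MTF1 switches on their genes when zinc rises. Of 11 tested metallothionein and zinc response genes, 0 were higher and 9 lower in the difference. The median shSP6 effect was 2.13 and the median shFOXO4 effect 6.11. The median difference was -3.60, or -2.38 with groups at 0 set at a floor of 3 counts over the group. MT1G measured 4731 and 3396 in shSP6 cells against 158 and 568 in scramble cells, and 3195 and 2982 in shFOXO4 cells against 2.87 and 2.999 in scramble cells. The knockdown libraries lay between 2982 and 4731, whereas the scramble libraries lay at 158 and above in the shSP6 table and below 3 in the shFOXO4 table (difference -5.88 ± 0.56, adjusted p = 6.80e-06).

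MT1E had the same shape, with 1266 and 946 in shSP6 cells against 167 and 369.6 in scramble cells, and 1303 and 1467 in shFOXO4 cells against 4.78 and 1.999 in scramble cells. MT2A, the most widely expressed member, measured 2075 and 1593 in shSP6 cells against 224 and 449 in scramble cells, and 1747 and 1935 in shFOXO4 cells against 36.3 and 17.99 in scramble cells (difference -3.60 ± 0.44). MT1H held 2319 and 1731 in shSP6 cells against 79.7 and 264 in scramble cells, and 1286 and 1348 in shFOXO4 cells against 1.91 and 0 in scramble cells, there 2 reads in all. MT1X, named after its values were seen, reached 236 and 195 in shSP6 cells against 18.2 and 32.1 in scramble cells, and 90.6 and 129.6 in shFOXO4 cells, at least 75.1-fold above its scramble cells, which were at 0. Scramble cells of the shSP6 table lay above those of the shFOXO4 table for 10 of the 11 list genes. The 2 members without a called difference, named after their values were seen, were MTF1 itself (difference 0.24 ± 0.22, adjusted p = 0.379) and the zinc transporter gene SLC30A2 (difference -1.07 ± 0.70, adjusted p = 0.229, or -1.88 and adjusted p = 0.0281 without shFOXO4 replicate 1). The metallothionein genes are near-identical neighbours on chromosome 16, so how the counting divided reads among them is uncertain.

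The promoters of 3 of these genes in RefSeq (GRCh38.p14) are printed with a loose form of the core of the metal response element, the site of MTF1. Capitals mark this form, TGCNCNC with N as any base, searched on both strands in the 250 bases before the start. It is looser than the core itself, so its matches can be more common. There are 8 matches in MT1H, 4 in MT1X and 7 in MT2A, and 49.1% of 35116 promoter windows of this length hold at least 1.
MT1H (chr16:56669564-56669813, plus strand): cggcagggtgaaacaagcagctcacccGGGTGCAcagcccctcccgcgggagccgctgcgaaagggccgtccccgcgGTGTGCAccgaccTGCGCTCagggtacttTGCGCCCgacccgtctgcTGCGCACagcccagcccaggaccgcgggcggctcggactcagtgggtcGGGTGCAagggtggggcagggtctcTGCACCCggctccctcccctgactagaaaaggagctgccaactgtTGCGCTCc
MT1X (chr16:56682220-56682469, plus strand): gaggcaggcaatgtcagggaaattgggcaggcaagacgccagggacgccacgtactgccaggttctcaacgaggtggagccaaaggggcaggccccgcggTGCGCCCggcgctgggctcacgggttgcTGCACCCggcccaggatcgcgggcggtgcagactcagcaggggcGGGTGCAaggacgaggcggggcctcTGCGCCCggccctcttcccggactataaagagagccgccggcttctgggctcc
MT2A (chr16:56608334-56608583, plus strand): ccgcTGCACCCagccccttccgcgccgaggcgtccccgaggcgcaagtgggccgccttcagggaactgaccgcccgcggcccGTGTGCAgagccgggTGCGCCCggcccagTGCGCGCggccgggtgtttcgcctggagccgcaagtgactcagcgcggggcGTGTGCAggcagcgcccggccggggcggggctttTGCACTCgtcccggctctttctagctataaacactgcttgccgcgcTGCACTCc

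Glycolytic and hypoxia-responsive genes separated the 2 knockdowns almost without exception. Of 29 tested members 28 were lower in the difference and 0 higher (median -2.15). The median shSP6 effect was 0.10, with 10 members higher and 7 lower, and the median shFOXO4 effect 2.30, with 28 higher and 0 lower. LDHA (ENSG00000134333), which turns pyruvate into lactate, measured 18084 and 14783 in shSP6 cells against 18885 and 27095 in scramble cells, and 30626 and 31443 in shFOXO4 cells against 3637 and 3873 in scramble cells. It fell in shSP6 cells (-0.47 ± 0.13, adjusted p = 0.00918) and rose in shFOXO4 cells (3.05 ± 0.13, adjusted p = 1.28e-09).

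BNIP3, a mitophagy receptor induced by low oxygen, held 3991 and 3099.8 in shSP6 cells and 3493 and 4821 in their scramble cells, which overlapped, against 8443 and 8572 in shFOXO4 cells and 605 and 467 in theirs (difference -4.22 ± 0.22, adjusted p = 1.30e-07). The lactate exporter SLC16A3 had the largest difference of the list, -4.86 ± 0.26, with 7266 and 5255 in shSP6 cells against 5826 and 7135 in scramble cells, and 15523 and 16881 in shFOXO4 cells against 724 and 468 in scramble cells. The glucose transporter SLC2A3 moved in opposite directions: 31602 and 27322 in shSP6 cells against 72866 and 73548 in scramble cells, and 60134 and 63607 in shFOXO4 cells against 34512 and 30048 in scramble cells. P4HA1, a collagen prolyl hydroxylase raised by hypoxia, showed no called change in shSP6 cells (0.23 ± 0.17) and rose in shFOXO4 cells (3.86 ± 0.17). The muscle phosphofructokinase PFKM was the member without a called difference (0.13 ± 0.10, adjusted p = 0.295), and both it and P4HA1 were named after their values were seen.

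The scramble groups parted on these genes as well. The summed level of the list was 427172 and 375394 in shSP6 cells, 429200 and 513264 in their scramble cells, 653502 and 657495 in shFOXO4 cells, and 202856 and 196833 in their scramble cells. Scramble cells of the shSP6 table lay above those of the shFOXO4 table for 29 of 29 members, by a median of 1.29 on the log2 scale, and shSP6 cells lay below shFOXO4 cells by a median of 0.66 (-0.66). Off the list, NDUFA4L2, a mitochondrial protein induced by hypoxia, belonged to the 15 lowest differences, with 187 and 100.4 in shSP6 cells and 99.04 and 172 in their scramble cells, against 1132 and 1186 in shFOXO4 cells and 10.5 and 17.99 in theirs.

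**Figure D2:**
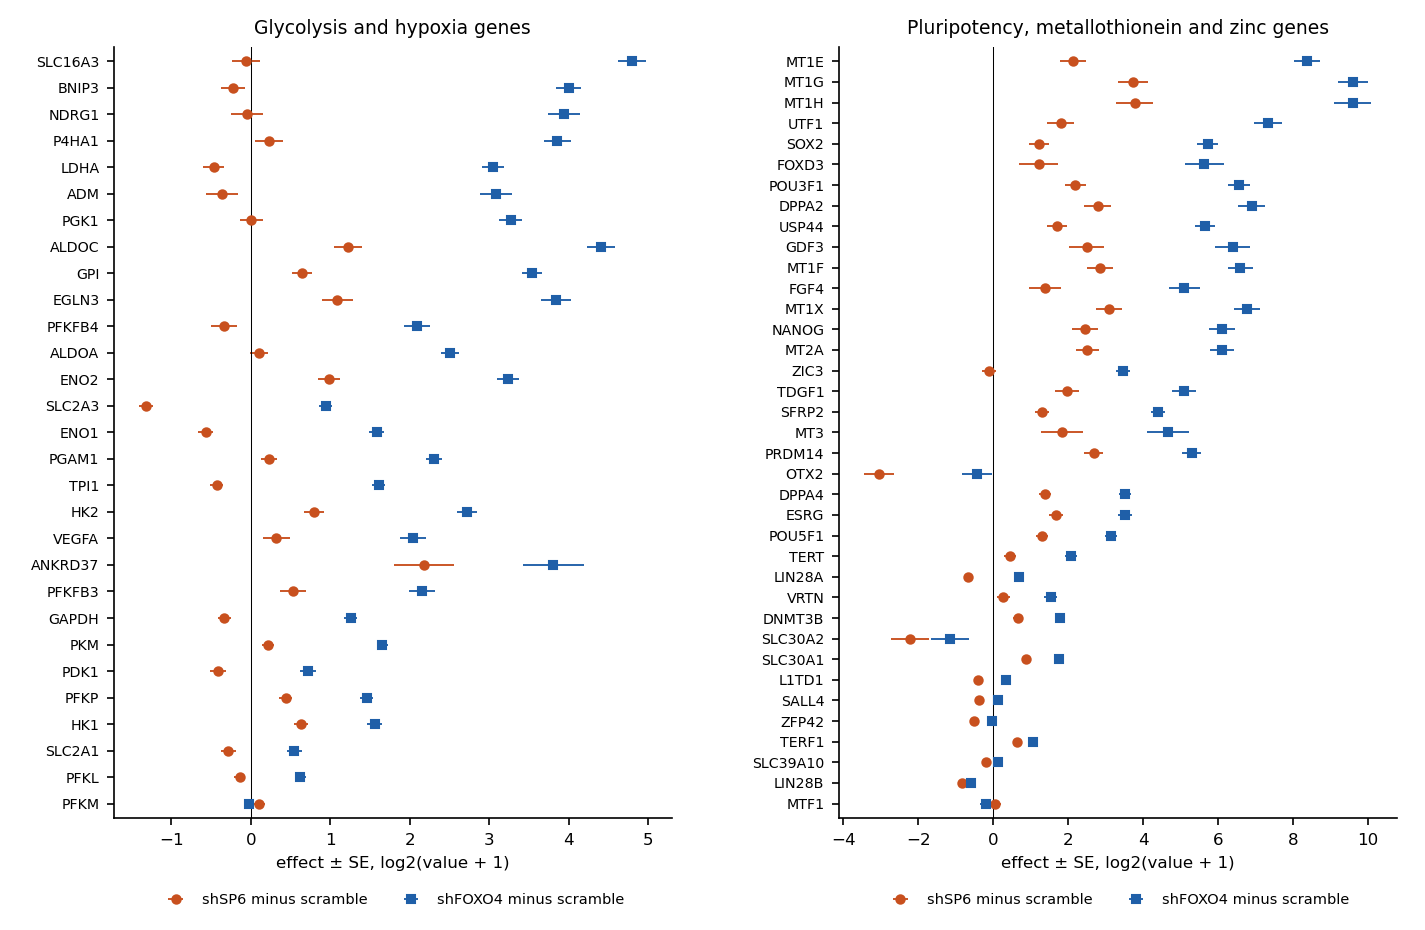
Effect ± SE of each hairpin on every tested member of the glycolysis and hypoxia list (left, 29 genes) and of the pluripotency and metallothionein lists (right), in log2(value + 1) of knockdown minus scramble, sorted by the difference with the lowest at the top. On the left the shSP6 effects (orange) lie around 0, at a median of 0.10, and the shFOXO4 effects (blue) at a median of 2.30.

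Promoter sequences of 3 hypoxia-responsive members from RefSeq (GRCh38.p14) show the core of the hypoxia response element, ACGTG, in capitals. It was searched on both strands, so that the palindrome CACGTG counts as 2 overlapping matches. LDHA holds 5 matches, BNIP3 2 and P4HA1 1 in the 250 bases before the start, and 18.5% of 35116 promoter windows of this length hold at least 1.
LDHA (chr11:18394313-18394562, plus strand): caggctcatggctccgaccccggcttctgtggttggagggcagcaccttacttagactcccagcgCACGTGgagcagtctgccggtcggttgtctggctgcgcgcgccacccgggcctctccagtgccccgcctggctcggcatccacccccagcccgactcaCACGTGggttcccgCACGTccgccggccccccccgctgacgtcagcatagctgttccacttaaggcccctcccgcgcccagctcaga
BNIP3 (chr10:131981924-131982173, minus strand): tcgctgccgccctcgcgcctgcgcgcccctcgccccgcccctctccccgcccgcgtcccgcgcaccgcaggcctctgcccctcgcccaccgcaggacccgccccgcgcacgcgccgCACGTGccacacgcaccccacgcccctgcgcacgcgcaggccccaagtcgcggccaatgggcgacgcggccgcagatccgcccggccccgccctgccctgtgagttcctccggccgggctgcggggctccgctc
P4HA1 (chr10:73096867-73097116, minus strand): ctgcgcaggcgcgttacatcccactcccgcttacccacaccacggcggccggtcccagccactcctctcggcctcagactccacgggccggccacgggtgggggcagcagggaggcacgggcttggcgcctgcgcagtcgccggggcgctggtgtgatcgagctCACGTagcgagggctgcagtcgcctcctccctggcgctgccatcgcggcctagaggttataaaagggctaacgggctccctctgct

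Pluripotency genes rose further in shFOXO4 cells than in shSP6 cells relative to their own scramble cells. Of 26 tested members 25 were lower in the difference and 0 higher (median -2.61). The shSP6 effect was called higher for 17 and lower for 6 of them (median 1.26), and the shFOXO4 effect higher for 22 and lower for 1 (median 3.53). NANOG, a core pluripotency factor, measured 2948 and 2927 in shSP6 cells against 401 and 722 in scramble cells, and 3003 and 2949 in shFOXO4 cells against 69.7 and 24.99 in scramble cells. The 4 knockdown libraries lay within 2927 to 3003, and each of the scramble libraries was lower, the 2 of the shFOXO4 table most of all.

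SOX2, its partner on DNA, gave 3822 and 3805 in shSP6 cells against 1245 and 2136 in scramble cells, and 6795 and 6657 in shFOXO4 cells against 182 and 86.96 in scramble cells (difference -4.50 ± 0.39, adjusted p = 3.08e-06). POU5F1, the OCT4 gene, gave 55239 and 55332 in shSP6 cells against 19554 and 25689 in scramble cells, and 39062 and 37181 in shFOXO4 cells against 5289 and 3509 in scramble cells (difference -1.84 ± 0.22). UTF1, a chromatin protein of undifferentiated cells, was the member with the largest difference, -5.53 ± 0.52, at 1686 and 1386 in shSP6 cells against 331 and 575 in scramble cells, and 11938 and 11764 in shFOXO4 cells against 124 and 41.98 in scramble cells. LIN28A, an RNA-binding protein that blocks let-7, went in opposite directions, down in shSP6 cells (-0.68 ± 0.08) and up in shFOXO4 cells (0.69 ± 0.08). Its paralogue LIN28B, the member without a called difference and named for that, fell in shSP6 cells (-0.83 ± 0.11) and in shFOXO4 cells (-0.60 ± 0.11). In 25 of the 26 genes the scramble cells of the shSP6 table lay above those of the shFOXO4 table, with a median gap of 2.48, while the median gap between shSP6 and shFOXO4 cells was 0.01.

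NODAL signalling, which sustains pluripotency and directs mesendoderm, did not follow the pluripotency genes as one. Of 17 members 7 were higher and 7 lower in the difference (median 0.08), against 19.9% and 29.1% of all tested genes. The ligand gene NODAL rose to 905 and 1046 in shSP6 cells against 31.9 and 33.2 in scramble cells, and to 277 and 289 in shFOXO4 cells against 39.2 and 26.99 in scramble cells (difference 1.78 ± 0.27, adjusted p = 1.92e-04). Its feedback antagonist LEFTY2 rose to 33197 and 33688 in shSP6 cells against 296 and 369.6 in scramble cells, and to 5377 and 6577 in shFOXO4 cells against 349 and 341 in scramble cells (difference 2.55 ± 0.15, adjusted p = 3.18e-07). The rise was thus larger in shSP6 cells for both.

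The neighbouring paralogue LEFTY1 reached 4688 and 4447 in shSP6 cells against 29.6 and 48.7 in scramble cells, and 1309.8 and 1573 in shFOXO4 cells against 5.73 and 1.999 in scramble cells. Its difference of -1.45 ± 0.44 (adjusted p = 0.0163) was lost with a pseudocount of 5 (adjusted p = 0.0977) and in edgeR (adjusted p = 0.188). It was also lost without shSP6 replicate 2 (adjusted p = 0.0608), without scramble replicate 2 of the shSP6 table (adjusted p = 0.0614) and without shFOXO4 replicate 2 (adjusted p = 0.0735). LEFTY1 and NODAL were named after their values were seen. CER1, a secreted inhibitor of NODAL, BMP and WNT, measured 461 and 413 in shSP6 cells against 5.69 and 3.32 in scramble cells, and 35.5 and 65.8 in shFOXO4 cells against 8.598 and 11.99 in scramble cells (difference 4.20 ± 0.51). FOXH1, which carries NODAL signals to DNA, went with the pluripotency genes: it rose in shFOXO4 cells (3.39 ± 0.21) and was not called in shSP6 cells (0.44 ± 0.21, adjusted p = 0.0842). LEFTY1 and LEFTY2 are near-identical, so reads may have been divided between them by the counting.

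FGF and Notch genes leaned with the pluripotency genes. Of all tested genes 29.1% were lower in the difference and 19.9% higher. Of 23 FGF-ERK feedback genes 17 were lower in the difference and 1 higher (median -1.21), with 2 higher in edgeR, with the replicate block and without scramble replicate 2 of the shFOXO4 table. SPRY4, a feedback inhibitor of receptor tyrosine kinases, measured 3908 and 4163 in shSP6 cells against 1429.8 and 2178 in scramble cells, and 4609.9 and 5122 in shFOXO4 cells against 397 and 392 in scramble cells. FGFR1, a receptor, fell in shSP6 cells (-1.07 ± 0.08) and rose in shFOXO4 cells (0.66 ± 0.08). The member that was higher was DUSP6, an ERK phosphatase named for that, which fell by less in shSP6 cells (-0.31 ± 0.08) than in shFOXO4 cells (-1.58 ± 0.08). Of 23 Notch pathway genes 15 were lower and 2 higher (median -1.19). HEY2, a Notch target, rose in shSP6 cells (2.38 ± 0.12) and more in shFOXO4 cells (4.08 ± 0.12), and the ligand gene DLL1 fell in shSP6 cells (-3.04 ± 0.24) with no called change in shFOXO4 cells (0.04 ± 0.24).

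Surface ectoderm regulators showed the opposite arrangement: both knockdowns lowered them, and shSP6 cells fell the further. Of 24 tested members 21 were lower in the difference and 0 higher (median -1.57). The shSP6 effect was called lower for 23 and higher for 0 (median -5.10), and the shFOXO4 effect lower for 19 and higher for 2 (median -3.14). TFAP2A (ENSG00000137203), an early regulator of surface ectoderm, measured 8.196 and 6.12 in shSP6 cells against 5039.6 and 3857 in scramble cells, and 699 and 624 in shFOXO4 cells against 9480.2 and 8888 in scramble cells. Its difference was -5.29 ± 0.20 (adjusted p = 1.46e-08), and the shSP6 libraries stood far below all others.

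DLX5, a homeobox gene of ectoderm and its placodes, held 1 read over both shSP6 libraries against 1777 and 1197 in scramble cells, and 151 and 166 in shFOXO4 cells against 1804 and 1412 in scramble cells. It was 3564-fold lower in shSP6 cells (exact 95% counting interval 639 to 140805) and fell in shFOXO4 cells (-3.32 ± 0.25). TFAP2B was at 0 in shSP6 cells, at least 729-fold below the 1061 and 760.3 of scramble cells, and held 56.5 and 57.5 in shFOXO4 cells against 2275 and 2545 in scramble cells. TP63, the regulator of stratified epithelium, held 3 reads in shSP6 cells, 378-fold (interval 129 to 1837) below the 499.8 and 445 of scramble cells, and 17.1 and 11.5 in shFOXO4 cells against 509 and 422 in theirs. These 3 genes were thus at or near 0 with the SP6 hairpin and still counted with the FOXO4 hairpin.

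GATA3 fell to 139 and 120.03 in shSP6 cells against 4837 and 3822 in scramble cells, and to 889 and 901 in shFOXO4 cells against 9366 and 7899 in scramble cells (difference -1.78 ± 0.16, adjusted p = 4.77e-06). For GRHL2, a grainyhead factor that maintains epithelial junctions, the effects lay close, at -3.13 ± 0.10 in shSP6 cells and -2.55 ± 0.10 in shFOXO4 cells (difference -0.58 ± 0.14, adjusted p = 0.00408). TFAP2C had a difference of -0.77 ± 0.22 (adjusted p = 0.0112) that was lost without shFOXO4 replicate 1 (-0.65, adjusted p = 0.0601) and in edgeR (-0.45, adjusted p = 0.0675). NR2F2, an orphan nuclear receptor named after its values were seen, held 2 reads in shSP6 cells, 959-fold (interval 265 to 7923) below the 886 and 713 of scramble cells, and 201 and 164 in shFOXO4 cells against 2121 and 2425 in theirs. The median gap over the list was -0.33 between the scramble groups and -2.51 between shSP6 and shFOXO4 cells. Scramble cells of the shSP6 table lay above those of the shFOXO4 table for 7 of 24 members. They lay below them without overlap for TFAP2A, TFAP2B, GATA3 and NR2F2, and overlapped with them for DLX5 and TP63. The part of these scramble gaps in the differences was not tested.

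**Figure D3:**
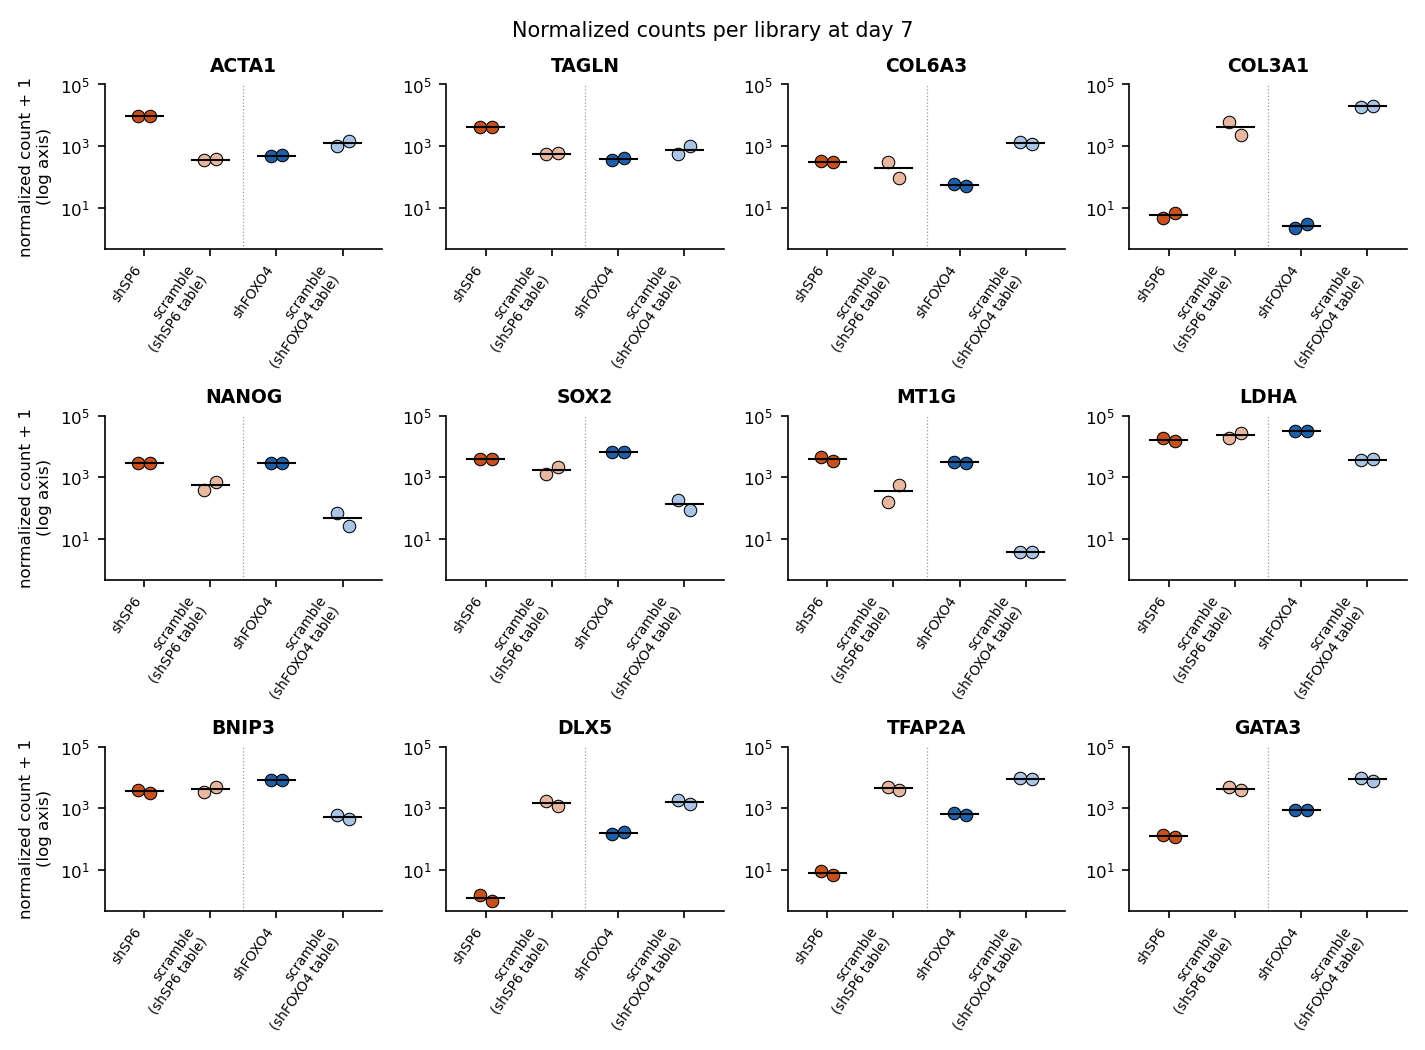
Normalized count + 1 of 12 genes in each day 7 library on a log axis (points: libraries; line: mean of 2), with shSP6 and its scramble left of the dotted line and shFOXO4 and its scramble right of it. ACTA1 and TAGLN stand high in shSP6 cells, NANOG, SOX2, MT1G, LDHA and BNIP3 low in the scramble cells of the shFOXO4 table, and DLX5 and TFAP2A lowest in shSP6 cells.

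BMP targets, whose products report BMP signalling, were lower in the difference for 12 of 21 and higher for 3 (median -1.46, or -0.86 with quantile normalization). Over all tested genes these shares were 29.1% and 19.9%. ID2, a direct target that blocks basic helix-loop-helix factors, fell to 98.98 and 82.1 in shSP6 cells against 3906 and 3185 in scramble cells, and to 730.4 and 696 in shFOXO4 cells against 4682 and 4063 in scramble cells. ID3 fell in shSP6 cells (-3.76 ± 0.07) and less in shFOXO4 cells (-1.52 ± 0.07). GREM1, a secreted BMP antagonist and the highest of the 3 exceptions, named for that, rose to 117 and 132 in shSP6 cells against 14.8 and 13.3 in scramble cells, and fell to 9.196 and 7.32 in shFOXO4 cells against 20.1 and 30.99 in scramble cells (difference 4.55 ± 0.47).

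Among 23 amnion genes 11 were lower and 8 higher in the difference (median -1.46, or -0.86 with quantile normalization). Over all tested genes these shares were 29.1% and 19.9%. The list shares members with others, such as ID2 with the BMP targets and TFAP2A with the surface ectoderm regulators. ISL1, a LIM homeobox gene of amnion and heart progenitors, held 20.2 and 20.8 in shSP6 cells against 1854 and 1418 in scramble cells, and 172 and 169 in shFOXO4 cells against 1221 and 959.6 in scramble cells (difference -3.58 ± 0.22). Summed over the 4 amnion markers ISL1, GABRP, VTCN1 and IGFBP3, the level was 1675 to 1696 in shSP6 cells, 8859 to 13584 in their scramble cells, 1166 to 1260 in shFOXO4 cells and 23203 to 24930 in theirs. Over the list the shSP6 effect was called lower for 20 of 23 genes and higher for 1 (median -4.44). The shFOXO4 effect was called lower for 23 and higher for 0 (median -3.26). The marker sum and most of the list therefore fell in both knockdowns, and it was the difference of effects that split.

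HOX genes, which mark position along the body axis and answer to retinoic acid, were lower in the difference for 8 of 14 tested members and higher for 0. Over all tested genes these shares were 29.1% and 19.9%. A further 22 of the 36 listed members did not reach the level limit. The median difference was -1.15, or -0.89 with groups at 0 set at the floor and -0.62 with quantile normalization, which gave 6 lower and 1 higher. With no filter on the mean 5 were higher. HOXB4 fell to 17.02 and 13.5 in shSP6 cells against 348 and 379.6 in scramble cells, and to 139 and 192 in shFOXO4 cells against 248 and 264 in scramble cells. Of 18 retinoic acid genes 8 were lower and 4 higher (median -0.22), against the same shares. The receptor gene RARB fell in shSP6 cells (-0.56 ± 0.09) and rose in shFOXO4 cells (1.36 ± 0.09).

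Genes of epithelial structure were called in the difference about as often as all tested genes. Of 37 simple-epithelium genes 8 were higher, 11 lower and 18 not called, against 19.9% higher and 29.1% lower over all tested genes, with a median difference of 0.03. Both effects were mostly downward: 31 members lower in shSP6 cells and 32 in shFOXO4 cells. KRT7 fell to 318 and 299 in shSP6 cells against 16050.1 and 11364 in scramble cells, and to 428 and 444 in shFOXO4 cells against 19876 and 21603 in scramble cells. Its difference was 0.12 ± 0.17 (adjusted p = 0.59), and it was 0.37 (adjusted p = 0.0179) without scramble replicate 1 of the shSP6 table and -0.13 (adjusted p = 0.376) without scramble replicate 2. KRT18 had a difference of -0.24 ± 0.17 (adjusted p = 0.251), or -0.43 (adjusted p = 0.0251) without scramble replicate 2 of the shSP6 table.

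KRT8, the partner of KRT18, fell to 23943 and 24043 in shSP6 cells against 106536 and 96330.0 in scramble cells, and to 32629.6 and 31648 in shFOXO4 cells against 83663 and 89601 in scramble cells (difference -0.65 ± 0.10, adjusted p = 2.05e-04). KRT19 fell further in shSP6 cells (-3.76 ± 0.07) than in shFOXO4 cells (-2.23 ± 0.07). KRT23 held 2 reads in shSP6 cells, 1567-fold (interval 433 to 12945) below scramble cells, and 35.5 and 25.1 in shFOXO4 cells against 618 and 371 in theirs. Keratins thus differed among themselves, from KRT7 without a call to KRT23 at the edge of detection.

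Of 17 tested stratified-epithelium genes 6 were higher and 4 lower in the difference (median 0.50), against 19.9% and 29.1% of all tested genes. The 6 became 3 without scramble replicate 2 of the shFOXO4 table, and with quantile normalization the median was 0.75, with 8 higher and 3 lower. COL17A1, the hemidesmosome collagen XVII, measured 131 and 104 in shSP6 cells against 26.2 and 19.9 in scramble cells, and 17.1 and 27.2 in shFOXO4 cells against 131 and 168 in scramble cells (difference 5.03 ± 0.40, adjusted p = 1.82e-06). PERP, a desmosome protein, fell in shSP6 cells (-1.29 ± 0.07) and in shFOXO4 cells (-0.69 ± 0.07). KRT5 measured 27.6 and 34.5 in shFOXO4 cells against 24.8 and 23.99 in scramble cells, and KRT14 15.8 and 12.5 in shFOXO4 cells against 5.73 and 7.997 in scramble cells, and neither could enter the comparison.

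Neural and neural crest genes were more often lower than higher in the difference. Of all tested genes 29.1% were lower and 19.9% higher. SOX2 counts in the neural ectoderm list as well as in the pluripotency list. Of 19 neural ectoderm genes 10 were lower (5 with a limit of 50 on the mean) and 3 higher (median -1.40). The higher ones were NES, CDH2 and DLK1. NES, the intermediate filament of neural progenitors, rose in shSP6 cells (1.16 ± 0.06) and fell in shFOXO4 cells (-0.26 ± 0.06). CDH2, the N-cadherin gene, did the same, at 1401 and 1395 in shSP6 cells against 318 and 336 in scramble cells, and 351 and 345 in shFOXO4 cells against 413 and 559 in scramble cells. SOX3, a neural and pluripotency SOX factor, fell in shSP6 cells (-0.50 ± 0.11) and rose in shFOXO4 cells (1.42 ± 0.11). The 5 neural markers PAX6, SOX1, LHX2, MAP2 and DCX stayed low, at a sum of 246 to 285 in shSP6 cells, 165 to 186 in their scramble cells, 233 to 247 in shFOXO4 cells and 103 to 151 in theirs.

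Of 13 neural crest genes 8 were lower and 1 higher (median -1.97), against 29.1% and 19.9% of all tested genes. NGFR, a neurotrophin receptor, measured 1311 and 1192 in shSP6 cells and 959.7 and 1654 in their scramble cells, an overlap, against 3027 and 3108 in shFOXO4 cells and 301 and 259.9 in theirs (difference -3.46 ± 0.26). SOX9 fell to 97.7 and 85.7 in shSP6 cells against 639.8 and 490.3 in scramble cells, while shFOXO4 cells (769.9 and 712) did not differ by test from theirs (944 and 775, adjusted p = 0.203). TWIST1, a mesenchymal regulator and the higher member, was named for that and had a difference of 1.46 ± 0.32.

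Calls in the smaller lists went both ways. Among 8 placode genes 3 were lower and 1 higher, among 9 mesendoderm regulators 5 were lower and 1 higher, among 9 trophoblast genes 3 were lower and 4 higher, and among 10 endothelial and blood genes 4 were lower and 2 higher, where 49% of all tested genes were called. Quantile normalization took the lower members to 3 for mesendoderm and 1 for trophoblast and the higher ones to 2 for placode, and a limit of 50 on the mean left trophoblast with 2 higher and 1 lower, endothelial and blood genes with 1 higher and 2 lower, and placode and mesendoderm with 0 higher. A further 7 placode, 11 mesendoderm, 9 trophoblast and 7 endothelial and blood genes did not reach the level limit. The mesendoderm ones included the endoderm markers SOX17, FOXA2 and AFP. Their summed level was 118 to 123 in shSP6 cells against 1.11 to 3.42 in scramble cells. In shFOXO4 cells it was 6.27 to 9.196 against 0 to 8.996 in scramble cells, an overlap. These markers were named after their values were seen, and the sums were not tested. GATA6, an endoderm and heart factor, fell to 5.67 and 3.67 in shSP6 cells against 344 and 365 in scramble cells, and to 65.7 and 81.5 in shFOXO4 cells against 844 and 852 in scramble cells. KDR, the VEGF receptor, which undifferentiated stem cells also express, rose to 6938 and 7575 in shSP6 cells against 756 and 1113 in scramble cells, and to 3397 and 3671 in shFOXO4 cells against 204 and 124 in scramble cells (difference -1.48 ± 0.28). FOXA1 had a difference of 2.89 ± 0.42, fell in shFOXO4 cells and was not called in shSP6 cells. CYP19A1, the aromatase gene of placenta, had a difference of 2.89 ± 0.63 at low levels. It measured 11.3 and 7.35 in shSP6 cells and 14.8 and 8.85 in their scramble cells, an overlap. In shFOXO4 cells it held 5.25 and 9.41 against 58.3 and 89.96 in theirs.

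Among the genes called in opposite directions, the highest and lowest by rule included genes already given (ACTA1, ANXA1, TAGLN and COL12A1 among those up in shSP6 cells, LDHA among those down). S100A6, a calcium-binding protein, rose to 687 and 661 in shSP6 cells against 393 and 329.8 in scramble cells, and fell to 82.8 and 80.5 in shFOXO4 cells against 297 and 325 in scramble cells. SCUBE1, a secreted EGF-domain protein, measured 167 and 154 in shSP6 cells against 58.1 and 71.9 in scramble cells, and 162 and 194 in shFOXO4 cells against 661 and 875 in scramble cells, and KLK6, a serine protease, 153 and 131 in shSP6 cells against 56.9 and 70.8 in scramble cells, and 51.2 and 40.8 in shFOXO4 cells against 193 and 254 in scramble cells. In all 3 the arms did not overlap in either table.

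At the other end stood genes down in shSP6 and up in shFOXO4 cells. IFI16, a nuclear DNA sensor, measured 171 and 148 in shSP6 cells against 758 and 767 in scramble cells, and 730.4 and 806 in shFOXO4 cells against 251 and 254 in scramble cells (difference -3.85 ± 0.15, adjusted p = 1.97e-08). PCDH19, a protocadherin of neuroepithelium, measured 54.2 and 56.3 in shSP6 cells against 351 and 374 in scramble cells, and 322 and 295 in shFOXO4 cells against 133 and 119.95 in scramble cells. For both, shFOXO4 cells and the scramble cells of the shSP6 table lay close together, and shSP6 cells were lowest.

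NEFM, a neurofilament subunit, gave 713 and 582 in shSP6 cells against 984 and 994 in scramble cells, and 1693 and 1758 in shFOXO4 cells against 117 and 108 in scramble cells. SLC1A6, a glutamate transporter, fell in shSP6 cells (-1.57 ± 0.14) and rose in shFOXO4 cells (1.77 ± 0.14), and XKR7 fell in shSP6 cells (-2.09 ± 0.17) and rose in shFOXO4 cells (1.77 ± 0.17). SPAG4 (-0.69 ± 0.19 in shSP6 cells, 3.93 ± 0.19 in shFOXO4 cells) and the potassium channel subunit gene KCNG3 (-1.33 ± 0.29 in shSP6 cells, 1.87 ± 0.29 in shFOXO4 cells) completed the lowest 8 with LDHA.

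Among the genes with the lowest differences were several without a list. SMIM24, a small membrane protein, had the lowest among called genes that averaged 100 or more in each table, -7.12 ± 0.73 (adjusted p = 1.06e-05), with 364 and 276 in shSP6 cells against 118 and 178 in scramble cells, and 656 and 665 in shFOXO4 cells against 3.82 and 0 in scramble cells. BARX1, a homeobox gene, held 711 and 502 in shSP6 cells against 332 and 349.7 in scramble cells, and 1781 and 2115 in shFOXO4 cells against 25.8 and 4.998 in scramble cells. PPP1R1B, a phosphatase inhibitor also called DARPP-32, held 819.6 and 707 in shSP6 cells against 302 and 508 in scramble cells, and 1559 and 1596 in shFOXO4 cells against 11.5 and 7.997 in scramble cells. For all 3 the scramble libraries of the shSP6 table held 118 or more and none in the shFOXO4 table exceeded 25.8. RASGRP2 had the same shape, with 159 and 281 in scramble cells of the shSP6 table and 2.87 and 4.998 in those of the shFOXO4 table, and so did STAC2, with 61.5 and 99.6 in the shSP6 table and 3.82 and 2.999 in the shFOXO4 table.

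The families and targets of the 2 factors themselves gave mixed counts. In the FOXO family FOXO4 was higher, FOXO1 was higher by 0.41 ± 0.14 (adjusted p = 0.0258, lost without shSP6 replicate 2, without replicate 1 of either scramble group, and without either shFOXO4 library, at adjusted p = 0.0507 to 0.109), and FOXO3 and FOXO6, named for completeness after their values were seen, were not called, at 0.21 ± 0.13 and -0.51 ± 0.27. FOXO6 was called without shSP6 replicate 1 (-0.75, adjusted p = 0.0419). Of 22 FOXO targets 12 were lower and 2 higher in the difference (median -0.43), with 1 higher without shSP6 replicate 1 or shFOXO4 replicate 1. MXI1, a MYC antagonist, fell to 573 and 555 in shSP6 cells against 1741 and 1647 in scramble cells, and rose to 998 and 1171 in shFOXO4 cells against 753 and 594 in scramble cells. IRS2, an adaptor of the insulin receptor, was not called in shSP6 cells (-0.03 ± 0.10) and rose in shFOXO4 cells (0.92 ± 0.10). In shSP6 cells 9 of 22 FOXO targets were called higher and 10 lower, against 28.8% and 32.1% of all tested genes. In shFOXO4 cells 14 of 22 were called higher and 5 lower, against 38.1% and 35.8% of all tested genes. These counts were not tested against each other or against those shares.

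Against 29.1% lower and 19.9% higher over all tested genes, in the SP family 4 of 7 tested members were lower in the difference and 0 higher. They were SP6 itself, SP8 (-4.33 ± 0.28), SP4 (-0.63 ± 0.18, not called in edgeR, adjusted p = 0.0719) and SP1 (-0.28 ± 0.09, not called in edgeR, adjusted p = 0.141, nor without replicate 1 of shSP6, of shFOXO4 or of the scramble cells of the shFOXO4 table, at adjusted p = 0.0547 to 0.0770). SP8, expressed in early ectoderm of the limb in mice, rose to 73.1 and 66.1 in shSP6 cells against 31.9 and 37.6 in scramble cells, and to 838 and 831 in shFOXO4 cells against 21.02 and 18.99 in scramble cells. Of 14 KLF genes 10 were lower and 1 higher (median -0.68), with 0 higher without replicate 2 of either scramble group, shSP6 replicate 1 or shFOXO4 replicate 1. KLF9 rose to 54.2 and 60.01 in shSP6 cells against 22.8 and 28.8 in scramble cells, and to 119.6 and 139 in shFOXO4 cells against 2.87 and 1.999 in scramble cells. KLF5, an epithelial and stem cell factor, fell in shSP6 cells (-0.64 ± 0.11) and rose in shFOXO4 cells (0.92 ± 0.11).

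Targets of the Hippo pathway effectors YAP and TEAD were higher in the difference for 10 of 17 and lower for 1 (median 0.33), with 0 lower in edgeR and without shSP6 replicate 1 or scramble replicate 2 of the shFOXO4 table, and 2 without scramble replicate 1 of the shSP6 table. ANKRD1, a classic YAP target, fell to 62.4 and 80.8 in shSP6 cells against 378 and 452 in scramble cells, and to 11.8 and 9.41 in shFOXO4 cells against 349.6 and 469 in scramble cells (difference 2.61 ± 0.31, adjusted p = 2.74e-05). AJUBA, a LIM protein that holds back the Hippo kinases, fell by less in shSP6 cells (-0.89 ± 0.08) than in shFOXO4 cells (-2.39 ± 0.08). AMOTL1 was not called in shSP6 cells (0.06 ± 0.07) and fell in shFOXO4 cells (-1.23 ± 0.07). Of all tested genes 19.9% were higher in the difference and 29.1% lower. Of 16 WNT targets 7 were lower (4 in edgeR) and 2 higher (1 without shSP6 replicate 2 or scramble replicate 2 of its table), with a median of -0.66, or -0.42 with quantile normalization. CDX1, a caudal homeobox gene, was higher through its fall in shFOXO4 cells to 93.3 and 109 against 870.3 and 889.6 in scramble cells.

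Lists of general cell functions had medians between -0.21 and 0.11. Their counts stand beside 19.9% higher and 29.1% lower over all tested genes. Those of the p53 targets, the cell cycle genes and the ATF4 and unfolded protein response genes lay near these shares. No count was tested against them. Of 32 cell cycle genes 8 were higher and 11 lower (median -0.21), with MCM3, a subunit of the replicative helicase, at -1.88 ± 0.07 in shSP6 cells and -0.56 ± 0.07 in shFOXO4 cells. Of 22 ATF4 and unfolded protein response genes 6 were higher and 6 lower (median -0.03, or 0.01 with TMM factors), and HSPA5, the endoplasmic reticulum chaperone BiP, rose further in shSP6 cells (1.79 ± 0.06) than in shFOXO4 cells (0.78 ± 0.06). Of 23 p53 targets 5 were higher and 7 lower. The 7 became 3 in edgeR and without shFOXO4 replicate 1, and 4 without shFOXO4 replicate 2 or without scramble replicate 2 of either table. Of 26 SWI/SNF subunits 6 were higher and 4 lower (2 lower in edgeR), and of 23 Polycomb and DNA methylation genes 5 were higher and 9 lower.

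Single members of these lists moved more. GDF15, a stress cytokine and p53 target, rose to 8436 and 6497 in shSP6 cells against 628 and 1100.0 in scramble cells, and to 13892 and 16489.8 in shFOXO4 cells against 338 and 307 in scramble cells. JARID2, a Polycomb cofactor, rose in shSP6 cells (0.56 ± 0.11) and more in shFOXO4 cells (2.82 ± 0.11). SMARCA4, the SWI/SNF ATPase BRG1, was not called in shSP6 cells (adjusted p = 0.991) and fell in shFOXO4 cells (-0.96 ± 0.06). Of 24 interferon response genes 4 were higher and 8 lower (10 and 7 with quantile normalization), against 19.9% and 29.1% of all tested genes. Their median difference was 0.12. The 4 became 2 with the replicate block, with no filter on the mean, and on leaving out either shSP6 library, either scramble library of the shFOXO4 table, scramble replicate 2 of the shSP6 table or shFOXO4 replicate 2. The antiviral membrane proteins BST2 and IFITM1 had differences of -3.69 ± 0.32 and -3.48 ± 0.17.

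Mitochondrially encoded mRNAs were higher in the difference for 9 of 13 and lower for 0 (median 0.57), and the direction was the opposite at day 3. MT-ND2, a subunit of complex I, measured 27352 and 24581 in shSP6 cells against 13966 and 12210.0 in scramble cells, and 57624 and 52879.8 in shFOXO4 cells against 87358 and 84722 in scramble cells. These RNAs took 1.31 to 1.78% of the counts in the libraries of the shSP6 table and 5.56 to 7.47% in those of the shFOXO4 table, and the part of this gap between the tables in the result was not tested.

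**Figure D4:**
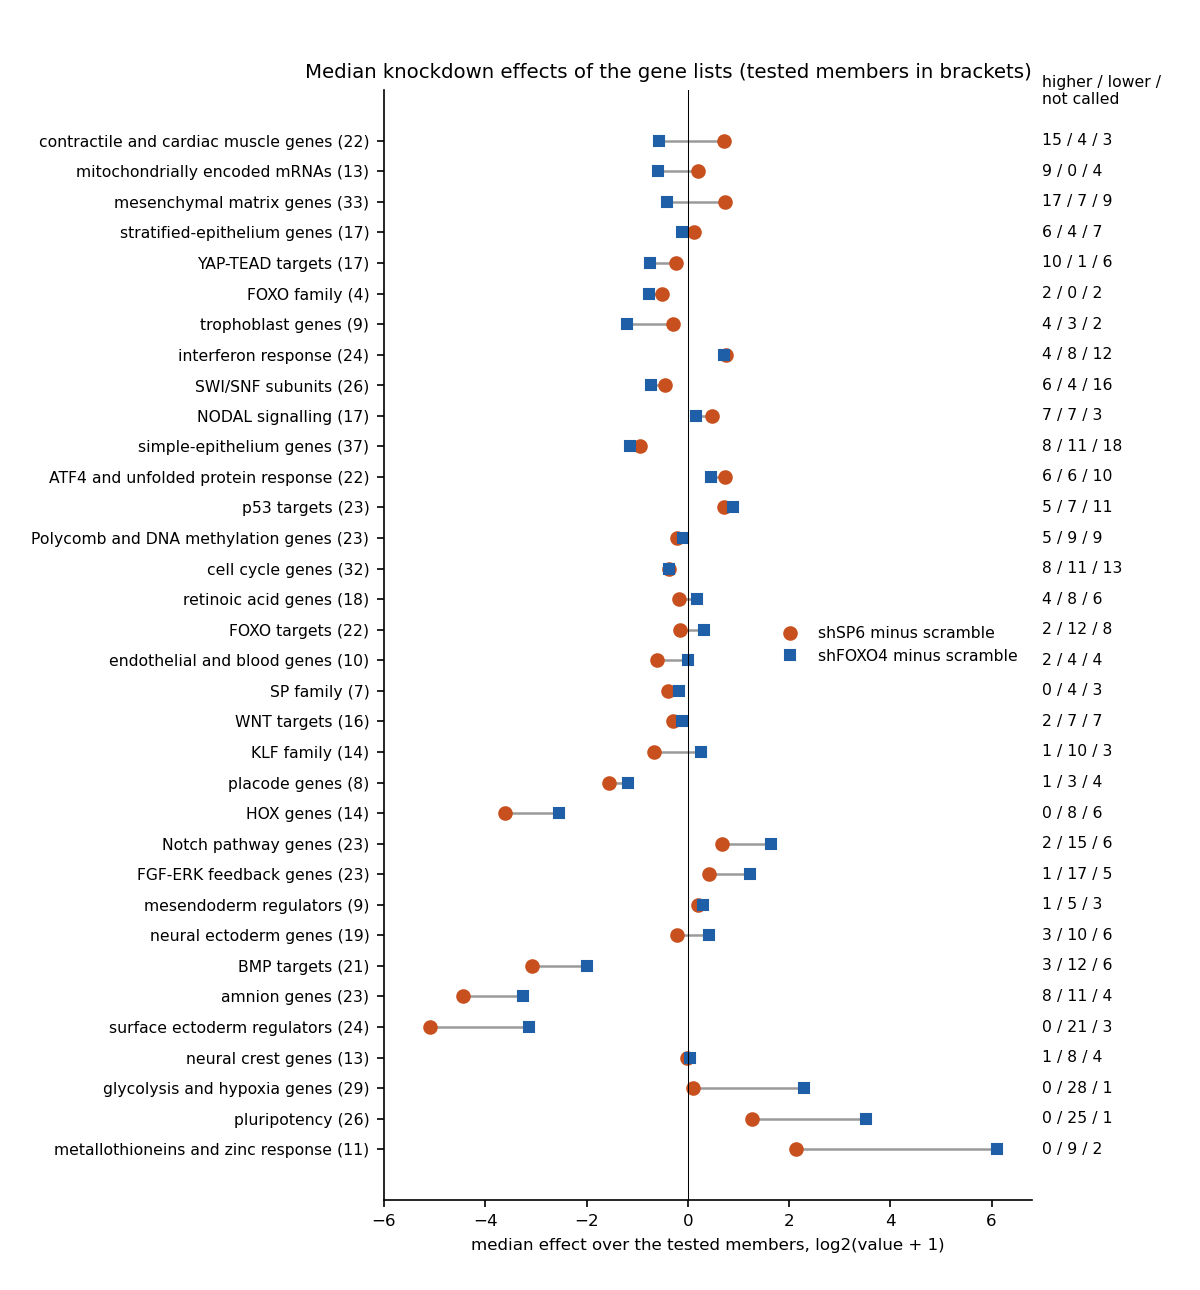
Median effect of each hairpin over the tested members of 34 gene lists (number tested in brackets), in log2(value + 1) of knockdown minus scramble, with shSP6 as orange circles and shFOXO4 as blue squares, and at the right how many members were higher, lower or not called in the difference. The lists run from contractile genes at the top (median difference 1.09) to metallothioneins at the bottom (-3.60).

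Because a difference of effects has 4 parts, the levels behind it were set side by side across the tables, as a description without a test. Among the 7868 genes with a called difference the gap between the scramble groups was larger than the gap between the knockdown groups for 52.1%, and among all tested genes for 51.5%. The lists divided into kinds. For pluripotency, metallothionein, and glycolysis and hypoxia genes the median gap between scramble groups was 2.48, 3.58 and 1.29 toward the shSP6 table. Between the knockdown groups it was 0.01, -0.02 and -0.66. For surface ectoderm regulators, BMP targets and contractile genes the median gap was -2.51, -1.203 and 1.297 between knockdown groups. Between the scramble groups it was -0.33, -0.31 and 0.11. These medians are signed, so opposite gaps offset each other, and a median near 0 does not place every member close. Scramble cells of the shSP6 table lay above those of the shFOXO4 table for 12 of 22 contractile genes. ACTA1 lay below, at 360 and 377 against 1037 and 1459. UTF1, a pluripotency gene, held 1686 and 1386 in shSP6 cells and 11938 and 11764 in shFOXO4 cells. HOX genes (-1.96 between knockdown groups and -1.09 between scramble groups) and mitochondrially encoded mRNAs (-1.92 and -2.39) differed between tables in both arms. The summed pluripotency markers of the scramble cells, given above, did not overlap between the tables, and their part in these gaps was not tested.

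**Figure D5:**
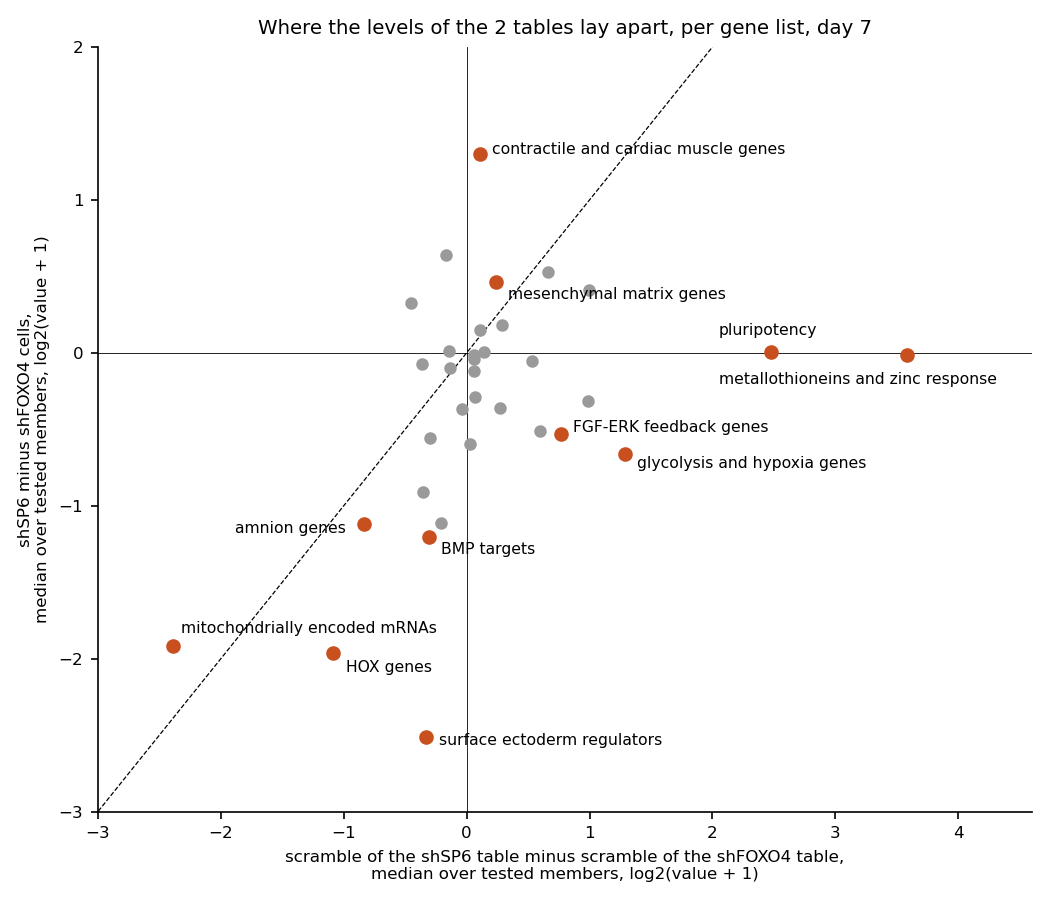
Median gap in level between the 2 day 7 tables for each of 34 gene lists, in log2(value + 1): shSP6 minus shFOXO4 cells on the vertical axis, scramble of the shSP6 table minus scramble of the shFOXO4 table on the horizontal axis. Pluripotency and metallothionein genes lie at the right near 0 on the vertical axis, surface ectoderm regulators low near 0 on the horizontal axis, and a list on the dashed line would have no difference between the effects.

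The same contrast was available at day 3, with other libraries and other scramble cells. There 5698 of 15476 genes differed, 2896 higher (18.7%) and 2802 lower (18.1%). Of the 14801 genes tested on both days 3244 were called on both, which is 43.7% of the day 7 calls and 57.8% of the day 3 calls, and 2297 of them had the same direction and 947 the opposite one. The difference between days was not tested.

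Contractile genes were higher at day 3 as well, 12 of 20 against 1 lower, and so were matrix genes, 19 of 29 against 3 lower (median 0.64). ACTA1 had a day 3 difference of 3.08, ACTC1 one of 2.13, NPPB one of 4.15 and ANKRD1 one of 4.16. Lists that were low at day 7 took several positions at day 3. Pluripotency genes were higher for 4 and lower for 7 of 26 (median -0.06), glycolysis and hypoxia genes higher for 8 and lower for 4 of 28 (median 0.04), and surface ectoderm regulators higher for 7 and lower for 5 of 24 (median 0.12). The day 3 medians were positive for neural crest (0.36), neural ectoderm (0.38), mesendoderm (0.43), Notch pathway (0.33) and endothelial and blood genes (0.67), and -0.52 for placode genes. Mitochondrially encoded mRNAs had the opposite direction at day 3, with 0 of 13 higher and 9 lower (median -0.47). Of 8 metallothionein and zinc genes 0 were called by limma in either direction at day 3 (1 at an unadjusted p under 0.05), and no count test was run on that day. For TFAP2A the day 3 effects were -2.16 in shSP6 cells and -2.30 in shFOXO4 cells, for DLX5 -1.90 and -1.99, and for GATA3 -2.03 and -1.86. For NANOG they were 2.001 and 2.16, and for SOX2 1.77 and 2.10. FOXO4 and SP6 kept their directions, with day 3 differences of 2.54 and -1.31.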

How the data were processed

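RNA sequencing libraries of H1 cells were made with a stranded mRNA kit, per the labels' protocols. The deposited values are a normalized count signal per gene, which the authors made by dividing reads by 1 size factor per library within each table of 4 libraries. The submitters' processing notes name the aligner STAR 2.6.1, the quantifier RSEM 1.3.0, the read trimmer Trimmomatic 0.39, the package DESeq2 1.20.0 and the build hg19. Day and hairpin of a table were taken from its own name and columns, matched to the sample labels.

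Values were set on log2(value + 1), and the difference of effects was fitted in limma 3.58.1 (R 4.3.3) over the 8 day 7 libraries with 1 shared spread and a mean trend. Adjusted p-values are Benjamini-Hochberg over all tested genes, two-sided, with a threshold of 0.05, and each ± is an SE unless named otherwise. Where whole reads could be recovered (7 libraries, tolerance 0.001), edgeR 4.0.16 tested them as an alternative. Read counts near 0 carry exact 95% intervals and a floor of 3 counts over a group, which cover counting error only. Scramble replicate 2 of the shFOXO4 table has a step near 1, and its low values were taken as whole reads there. The fit was also run on simulated data in which few genes changed, and only in shSP6 cells. These settings differ from the data, so that run does not give error rates here. The labels do not say whether replicate numbers pair the samples. Across genes, deviations of same-numbered libraries correlated at -0.067 in the shSP6 table and 0.016 in the shFOXO4 table. With 2 libraries per group this cannot show whether same-numbered libraries shared a culture or batch.

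The members, gene lists and naming rule were chosen with earlier results of these data known. Named were both targets, the 15 highest and 15 lowest called differences and the 8 highest and 8 lowest opposite-direction genes among genes averaging 100 or more, up to 4 called members per list by lowest adjusted p, and fixed epithelial and pluripotency markers; other names are said to be chosen after their values were seen. Lists were described by counts and medians, with no test of a list. Promoters came from RefSeq, for 8 of 13 genes looked up. Alternatives were other pseudocounts, filters, scalings, spreads, a replicate block, a minimum size and leaving out each library. Some genes are not reported here.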

Additional observations from a re-analysis of the deposited data

Results flagged for a closer look

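SCUBE1 was flagged because its difference of effects had opposite signs between the days. That is not particular to SCUBE1: of 3244 genes called on both days 947 had opposite directions. Its difference was 3.39 at day 7, where SCUBE1 rose with shSP6 and fell with shFOXO4, and -1.20 at day 3 (limma, adjusted p = 0.025). The difference between the days was not tested.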

How the results depend on the processing

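Of 178 named genes, 168 kept the direction and call of their difference under every alternative run on them. Most were named for large differences or low adjusted p-values in these same libraries, so this count does not describe all called genes. Requiring an absolute log2 change of at least 1 left 3466 genes with a called difference (991 higher, 2475 lower), 3724 shSP6 effects, 5885 shFOXO4 effects, 498 opposite-direction genes and, at day 3, 1090 called differences. Leaving out 1 library at a time gave 6540 to 7547 called differences (2556 to 3103 higher, 3984 to 4499 lower), 666 to 875 opposite-direction genes and 4368 to 6259 day 3 calls. Quantile normalization gave 7970 calls, 49.7% of them higher against 40.6% with the authors' scaling, and edgeR on 7 libraries gave 6821. The fit with the replicate number as a block gave 7544. Whether these numbers pair the samples is not stated in the labels. KRT7, at 0.12, turned to -0.13 (adjusted p = 0.376) without scramble replicate 2 of the shSP6 table and was 0.37 (adjusted p = 0.0179) without replicate 1, and the cause was not tested. The other genes whose call changed were COL3A1, FOXO1, SP1, SP4, KRT18, TFAP2C, LEFTY1, SLC30A2 and FOXO6. Each group had 2 libraries, and where 1 was left out the lone library was assumed to vary like the others; no limit of detection was computed.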
